A study of Saccharomyces cerevisiae with 15 samples.

Results

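The comparison described here set yeast cells that overproduced the active protein Rbs1 against cells that overproduced the same protein with an altered R3H domain, both in a strain whose RNA polymerase III (Pol III) is defective. Its members were chosen by their labels: the 3 libraries named rpc128-1007[RBS1] and the 3 named rpc128-1007[RBS1-R3H], which is 6 of the 15 libraries of the series, and all 6600 genes of the count table entered the comparison. Both strains were Saccharomyces cerevisiae haploids of mating type MATa with the chromosomal mutation rpc128-1007 in the gene for the second largest Pol III subunit, and they shared the alleles his3, lys2-1, ura3-1 and ade2-1, a defective leu2 allele and the suppressor SUP11. The [RBS1] strain carried RBS1 with its wild-type coding sequence on a multicopy plasmid with the LEU2 marker. The [RBS1-R3H] strain carried the same plasmid with arginine 57 and histidine 61 of the protein changed to alanine. The question of the comparison is therefore what the R3H domain adds when gene, plasmid type and marker are held the same. The other strains were the mutant with an empty vector (rpc128-1007), the mutant with the native RPC128 gene on a centromeric plasmid with the URA3 marker (wt) and the mutant with PRT1 on a plasmid ([PRT1]), each with 3 libraries, and levels in rpc128-1007 and wt are given here for context only. The marker of the empty vector is not given in the sources used here, and URA3 mRNA had 2295, 2028 and 2036 CPM in rpc128-1007 (CPM is counts per 1000000 counts of the scaled library), far above the [RBS1] and [RBS1-R3H] libraries, so a difference of these strains from rpc128-1007 or wt may also hold a difference in marker. Selection for the plasmids was applied only to the overnight cultures. RNA came from log-phase cells in YPD, where a plasmid can be lost, and its polyadenylated fraction was sequenced.

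Pol III transcribes tRNAs, 5S rRNA and other small RNAs, none of which is captured well by selection for poly(A) tails. Rbs1 is a protein with an R3H domain, a fold named for its conserved arginine and histidine that binds single-stranded nucleic acid, and extra copies of RBS1 were found as a suppressor of Pol III assembly mutants. Yeast cells respond to a lack of amino acids or of charged or initiator tRNA through Gcn4, a transcription factor whose mRNA is translated more when initiation is slowed at the small reading frames before its start codon. Gcn4 binds upstream of the genes of nearly all amino acid pathways, and its activity can change without a change of its mRNA.

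The residues that separate the strains lie within codons 55 to 64 of RBS1 (YDL189W), an intronless reading frame that encodes 457 amino acids in the R64 reference. The codons that encode arginine 57 and histidine 61 are printed in capitals, since they are the only designed difference between the plasmids. The stretch was read 5′ to 3′ from the + strand at chrIV:122378-122407 of R64, and the altered codons of the plasmid were not read here.
RBS1 codons 55 to 64: tattatAGGcttctatcgCACcaaatagct

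The 3 [RBS1] libraries held 11878873, 7794547 and 8761053 counts on genes, and the [RBS1-R3H] libraries held 9449052, 9302957 and 9878083. Replicate 2 of [RBS1] stood apart from the other libraries of its strain: its deviations from the strain mean had a Spearman correlation of 0.50 with gene length over 5699 genes, against -0.27 and -0.46 in replicates 1 and 3, while the [RBS1-R3H] libraries lay between -0.17 and 0.14. Very short genes were low in that library, for example MFA1, which encodes the a-factor pheromone and had 25.9 CPM there against 166 and 161 CPM in the other [RBS1] libraries. The count of all called genes is therefore given with and without it. Replicates differed by more than counting error in both strains, with a chi-square per gene of 10.3 to 34.8 in [RBS1] and 10.3 to 18.3 in [RBS1-R3H]. The rpc128-1007 libraries differed more, with a chi-square per gene of at least 34.9 for each pair. Replicate 2 of rpc128-1007 had a correlation of 0.56 with gene length, against -0.33 and -0.38 in its replicates 1 and 3. Values set against rpc128-1007 below rest on these less even libraries. The expression of the mating genes fitted MATa cells, with STE2, the receptor for alpha-factor, at 666, 631 and 647 CPM in [RBS1] and 573, 573 and 563 CPM in [RBS1-R3H], and with MF(ALPHA)1, which encodes alpha-factor, under 3 CPM in all 6 libraries.

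RBS1 was overexpressed in both strains. It reached 4223, 4425 and 4582 CPM in the [RBS1] libraries and 3947, 2464 and 2548 CPM in the [RBS1-R3H] libraries, against 93.9, 134 and 72.9 CPM in rpc128-1007 and 83.7, 99.1 and 84.1 CPM in wt. The libraries of the plasmid strains did not overlap, and replicate 1 of [RBS1-R3H] came close to [RBS1] while replicates 2 and 3 were lower. The fitted log2 fold change of [RBS1] over [RBS1-R3H] was 0.56 ± 0.20 (SE, n = 3 each), a 1.48-fold difference with an adjusted p of 0.0514 in the edgeR quasi-likelihood test, just above the threshold of 0.05. It was 0.0282 with the replicate number as a block. Over the 17 alternatives that test for any change the adjusted p ranged between 0.0113 and 0.196, and it was 0.114 without replicate 2 of [RBS1]. Since the amount of RBS1 mRNA was not shown to be equal, a difference in the dose of the protein and the change of its R3H domain cannot be told apart in the results below. A change in every cell and a change in the share of cells that kept the plasmid in YPD cannot be told apart either, as fewer cells of a type and less RNA per cell give the same bulk level.

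The chromosomal neighbours of RBS1 and the marker genes were compared next. PPH22, a catalytic subunit of protein phosphatase 2A that lies beside RBS1 on chromosome IV, had 760.1, 325 and 952 CPM in [RBS1] and 814, 411 and 525 CPM in [RBS1-R3H], against 68.2, 59.1 and 65.7 CPM in rpc128-1007. The plasmid strains overlapped widely, and the log2 fold change of 0.22 ± 0.29 did not pass the test (adjusted p = 0.627). Both lay far above rpc128-1007, so a difference of either strain from rpc128-1007 may also hold one in PPH22. Whether the plasmids carry PPH22 is not given in the sources used here. The neighbour on the other side, UFD2, a ubiquitin chain assembly factor, was slightly lower in [RBS1], with 77.7, 68.9 and 68.7 CPM against 93.0, 90.6 and 92.4 CPM in [RBS1-R3H] (log2 fold change -0.36, adjusted p = 0.00174). The marker LEU2, an enzyme of leucine biosynthesis, had 2258, 1898 and 3028 CPM in [RBS1] and 4429, 3410.1 and 3442 CPM in [RBS1-R3H], so that the strains did not overlap and [RBS1] was lower, with a log2 fold change of -0.65 ± 0.18 (adjusted p = 0.0151). That call was lost without replicate 1 or 2 of [RBS1] or replicate 1 of [RBS1-R3H] (adjusted p of up to 0.069). URA3, a marker that neither of these plasmids carries, had 188, 220.5 and 183 CPM in [RBS1] and 186, 227 and 208 CPM in [RBS1-R3H] and overlapped between them (adjusted p = 0.593).

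**Figure D1:**
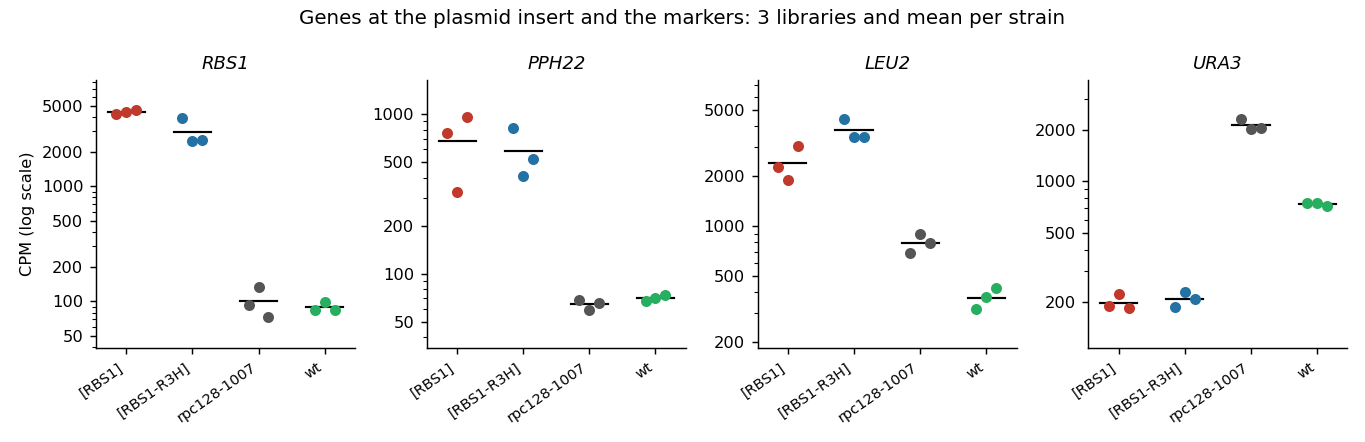
Levels of RBS1, PPH22, LEU2 and URA3 in CPM on a log scale, with 3 libraries (points) and their mean (line) for [RBS1], [RBS1-R3H], rpc128-1007 and wt from left to right. RBS1 lies above 2400 CPM in all 6 libraries of the plasmid strains and under 140 CPM in rpc128-1007 and wt, and LEU2 is lower in the [RBS1] libraries than in the [RBS1-R3H] libraries.

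Of 5851 genes tested across the transcriptome, 1630 (27.9%) were called at an adjusted p under 0.05, 788 of them higher in [RBS1] (13.5%) and 842 lower (14.4%). The libraries of the strains did not overlap for 1598 of the called genes, and for 42.6% of all tested genes. The lower genes moved further. A change of more than 2-fold was seen in 202 genes that were lower (3.45%) and 95 that were higher (1.62%), and one of more than 4-fold in 54 and 15 genes. The median log2 fold change was -0.57 among lower genes and 0.46 among higher genes, and 0.01 over all tested genes. Without replicate 2 of [RBS1] the calls were 619 higher and 831 lower. The split of the calls depended on the scaling: with library totals in place of TMM factors, the median of all genes moved to 0.14 and 1460 genes were called higher and 574 lower. Directions below are relative to the median gene.

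**Figure D2:**
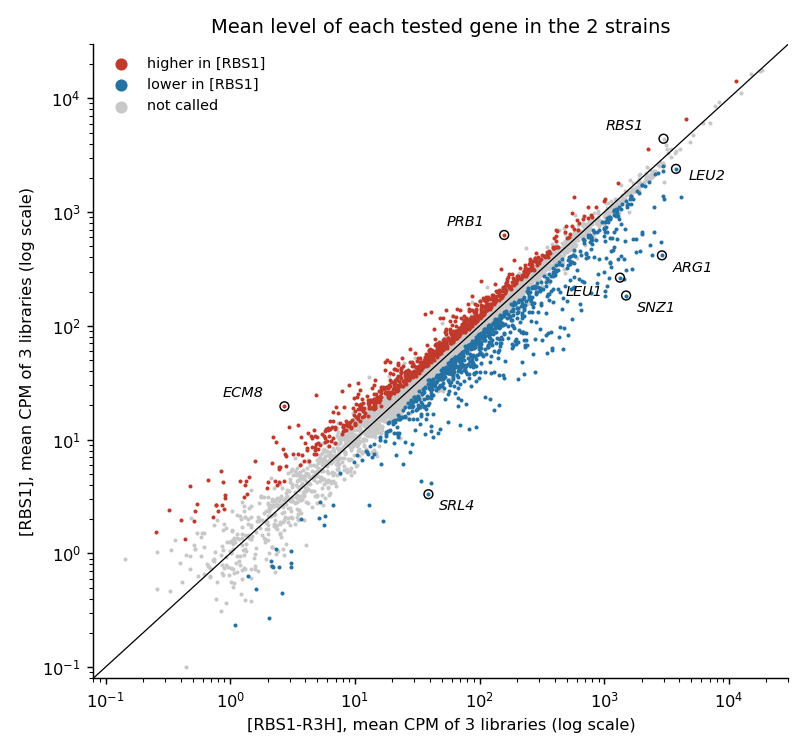
Mean level of each tested gene in [RBS1] (vertical axis) against [RBS1-R3H] (horizontal axis), in CPM over 3 libraries, on log scales, with genes called higher in [RBS1] in red, genes called lower in blue, the others in grey and the line of equal levels in black. The blue genes reach further from the line than the red ones, with ARG1 at 416 CPM in [RBS1] and 2899 CPM in [RBS1-R3H], while PRB1 lies above the line at 628 and 158 CPM.

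The widest difference was in amino acid biosynthesis. Of 99 tested genes of 8 pathway lists, 78 were lower in [RBS1] and 4 were higher, against 14.4% and 13.5% of all genes, and the median log2 fold change of the lists was -1.23. Summed over the 99 genes, the level was 29221, 28559.7 and 28436 CPM in [RBS1] and 77707, 82966 and 67437 CPM in [RBS1-R3H]. It was 70618, 61156 and 51219 CPM in rpc128-1007 and 29205, 28356 and 32190.0 CPM in wt. In this sum the [RBS1] libraries lay within or next to the range of wt, and the [RBS1-R3H] libraries overlapped the upper end of rpc128-1007. Single lists differed from wt in opposite directions. The branched-chain list had 4958, 4825 and 4559 CPM in [RBS1] and 7953, 8465 and 8645.5 CPM in wt, where the marker also differs. The arginine list had 2037, 1695 and 2028 CPM in [RBS1] and 1136, 854.5 and 1639 CPM in wt. The histidine, aromatic and sulfate lists were also above wt in every [RBS1] library, and the other lists overlapped wt. Set against rpc128-1007, 5 of the 99 genes were higher and 72 lower in [RBS1] (12.6% and 17.1% of all genes), and 47 were higher and 5 lower in [RBS1-R3H] (4.67% and 6.8% of all genes). These counts share the rpc128-1007 libraries. Between [RBS1] and [RBS1-R3H], leaving out single libraries gave 76 to 79 lower genes. With a test against a fold change of 1.5 there were 59.

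**Figure D3:**
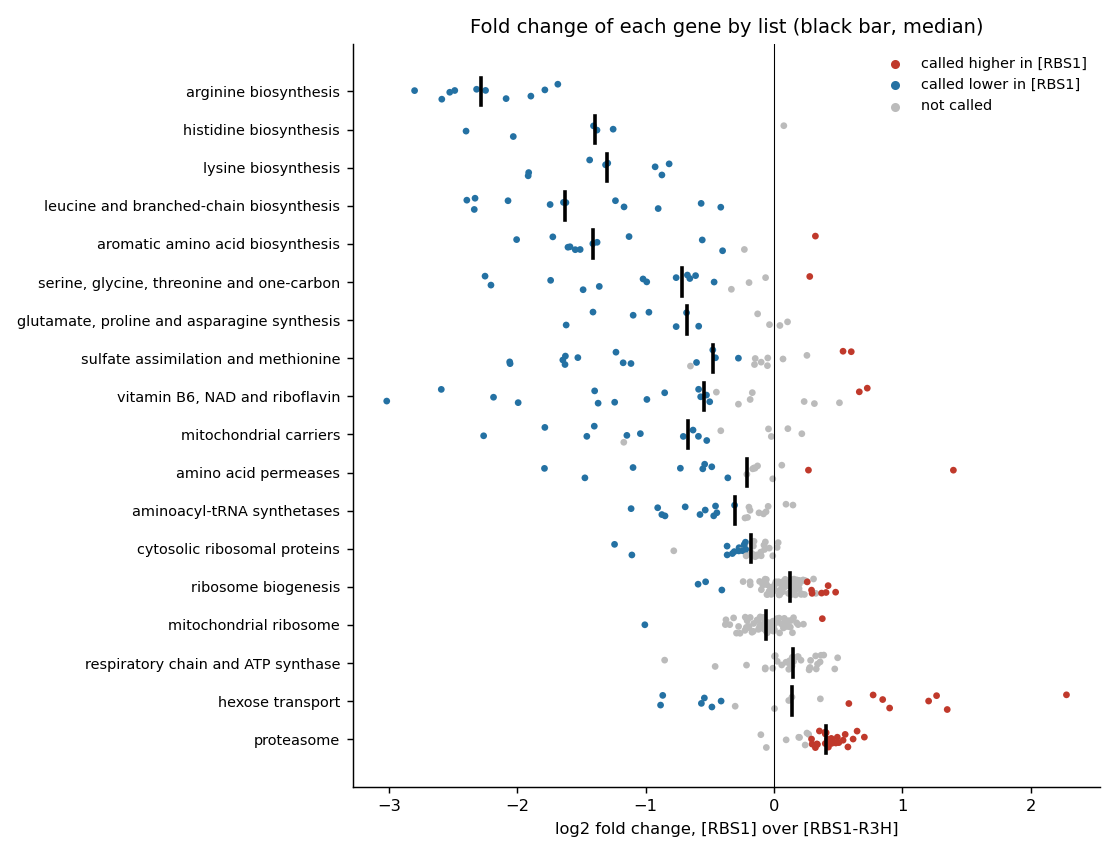
Log2 fold change of [RBS1] over [RBS1-R3H] for each tested gene of 18 lists, 1 list per row, with genes called higher in red, called lower in blue, not called in grey, and the list's median as a black bar. The lists of amino acid pathways lie to the left of 0, with a median of -2.28 for arginine biosynthesis, and the proteasome lies to the right of it with a median of 0.40.

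All 10 genes of arginine biosynthesis were lower in [RBS1], with log2 fold changes of -2.80 to -1.68. ARG1, argininosuccinate synthetase, had 448, 309.5 and 491 CPM in [RBS1] and 3298, 3029 and 2371 CPM in [RBS1-R3H]. Every [RBS1] library lay far under every [RBS1-R3H] library, and the 6.96-fold difference had a log2 fold change of -2.80 ± 0.36 and an adjusted p of 5e-05. Between them lay rpc128-1007 with 1660.5, 1225 and 1032 CPM, so that the log2 fold change of ARG1 was -1.65 in [RBS1] and 1.15 in [RBS1-R3H] when each was set against the same rpc128-1007 libraries (adjusted p = 0.0029 and 0.0426). ARG3, ornithine carbamoyltransferase, had 64.3, 41.9 and 65.5 CPM in [RBS1] and 437, 346 and 252 CPM in [RBS1-R3H]. The strains were kept apart, with a log2 fold change of -2.59 (adjusted p = 3.9e-05).

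Histidine and lysine genes followed the same direction. Of 6 histidine genes, 5 were lower in [RBS1] and HIS6 was not called. HIS4, a multifunctional enzyme of the pathway and a classical Gcn4 target, had 525, 537 and 572 CPM in [RBS1] and 2842, 3254 and 2528 CPM in [RBS1-R3H], a 5.28-fold difference (log2 fold change -2.40 ± 0.19, adjusted p = 5.79e-07). The [RBS1] libraries lay close together and far under every [RBS1-R3H] library. All 8 lysine genes were lower, with a median of -1.30, led by LYS1, saccharopine dehydrogenase, at 383 ± 38.1 CPM in [RBS1] and 1444 ± 239.7 CPM in [RBS1-R3H] (SD, n = 3 each), and by LYS20, a homocitrate synthase whose near-identical copy LYS21 may share reads with it.

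Of 13 genes of the aromatic pathways, 11 were lower and ARO7, chorismate mutase, was higher in [RBS1] by 0.32 on the log2 scale, a call lost without replicate 1 of [RBS1-R3H] (adjusted p = 0.063). ARO3, which catalyses the entry step, was 4.01-fold lower, with 465, 424 and 456 CPM in [RBS1] and 1820.2, 2001 and 1577 CPM in [RBS1-R3H]. Of 16 genes of serine, glycine, threonine and one-carbon metabolism, 12 were lower, led by GCV2 of the glycine cleavage complex (-2.25) and HOM2, aspartate semialdehyde dehydrogenase (-2.20), while HOM6, the next enzyme after HOM2, was higher by 0.28, a call lost without replicate 3 of either strain (adjusted p of up to 0.07). Of 23 sulfate assimilation and methionine genes, 13 were lower, led by MET17 (-2.06), which overlaps the reading frame YLR302C, and STR2 (-2.06), and SAM2 and MET32 were higher. Of 11 genes for glutamate, proline and asparagine, 7 were lower, led by ASN1, an asparagine synthetase, at 1334, 1342 and 1363 CPM in [RBS1] and 4188, 4569.8 and 3645 CPM in [RBS1-R3H]. The few steps that were higher stood in pathways in which most other genes were lower.

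GCN4 mRNA itself differed little. It had 1378, 1296 and 1491 CPM in [RBS1] and 1593, 1698 and 1611 CPM in [RBS1-R3H], and the strains did not overlap. The log2 fold change was -0.23 ± 0.07 (adjusted p = 0.026), and this call was lost under 6 alternatives, among them library totals and leaving out replicate 1 or 2 of [RBS1] or replicate 2 of [RBS1-R3H], with an adjusted p of up to 0.22. PCL5, the cyclin that targets Gcn4 for degradation and is itself activated by Gcn4, had 227, 234 and 216 CPM in [RBS1] and 1041, 1155 and 965 CPM in [RBS1-R3H], a 4.66-fold difference (log2 fold change -2.22 ± 0.13, adjusted p = 9.09e-08). Of the 13 genes listed for Gcn4 and its translational control, the third lower call was GCN20, at -0.26, which was lost with library totals, with the 6 libraries alone and without replicate 1 or 3 of [RBS1] or replicate 1 or 2 of [RBS1-R3H] (adjusted p of up to 0.21), and the 10 others, including GCN2, the kinase that senses uncharged tRNA, and the subunits of eIF2 and eIF2B, were not called. The 3 lower calls were 23.1% of the list, against 14.4% of all genes, and only that of PCL5 was kept under every alternative. The Gcn4 protein was not measured.

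The core of the Gcn4 binding site, TGACTC, was searched on both strands in the 500 bases before each start codon of the R64 reference. It was found before 737 of 5698 tested genes (12.9%), before 28.6% of the genes called lower in [RBS1], before 98 of 191 genes lower by more than 2-fold (51.3%) and before 9.31% of the genes called higher. It stood before 63 of the 99 amino acid genes (63.6%), and before all 10 arginine genes. A match describes the letters of these windows and is no measure of binding. The sites of 3 genes with a wide difference are shown, with the motif in capitals, read on the coding strand. ARG1 has 2 matches, and the one shown lies 345 bases before the start codon at chrXV:218854-218883. HIS4 has 3 matches, with the one shown 199 bases before the start codon at chrIII:68515-68544 on the minus strand. SNZ1 has 3 matches, with the one shown 254 bases before the start codon at chrXIII:458142-458171.
ARG1: gtgattttttagTGACTCatgtcgcatttg
HIS4: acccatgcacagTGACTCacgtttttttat
SNZ1: atcatgacataaTGACTCagccgacaaggg

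The branched-chain pathway held all 12 of its tested genes lower in [RBS1] (median -1.63). Against rpc128-1007, 2 of the 12 were higher and 3 were lower in [RBS1-R3H], with a median of -0.01, and 7 were not called. The 3 lower ones, LEU1, OAC1 and BAT1, are described next. LEU1, isopropylmalate isomerase, had 273, 274 and 248 CPM in [RBS1] and 1330.3, 1544 and 1135 CPM in [RBS1-R3H], with a log2 fold change of -2.33 ± 0.14 (adjusted p = 1.35e-07). In rpc128-1007 it had 3717, 3888 and 3124 CPM and in wt 1317, 1467 and 1777 CPM, so the [RBS1] libraries lay under those of every strain shown, and [RBS1-R3H] lay under rpc128-1007 in each library. Against the same rpc128-1007 libraries the log2 values were -3.75 for [RBS1] and -1.42 for [RBS1-R3H]. Both plasmid strains carried LEU2 beside a defective leu2 allele, wt carried URA3, and the marker of rpc128-1007 is not given. For LEU1 and the leucine genes below, a difference from rpc128-1007 or wt therefore cannot be told apart from that of the marker.

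OAC1, a mitochondrial carrier that exports the leucine precursor isopropylmalate, had 101, 82.1 and 102 CPM in [RBS1] and 482, 519.8 and 429 CPM in [RBS1-R3H], against 1956, 1163 and 1267 CPM in rpc128-1007. BAT1, the mitochondrial branched-chain aminotransferase, had 464, 472 and 440.4 CPM in [RBS1] and 1956, 2203 and 1628 CPM in [RBS1-R3H], against 3419.8, 3722 and 2840.0 CPM in rpc128-1007. The strains kept the same order in both genes, with [RBS1] lowest, and the log2 fold changes of [RBS1] over [RBS1-R3H] were -2.33 and -2.07 (adjusted p = 3.98e-07 and 9.09e-08). LEU4, isopropylmalate synthase, was lower in [RBS1], with a log2 fold change of -2.39 ± 0.16 and 338, 279.9 and 330.2 CPM against 1731, 1781 and 1469 CPM in [RBS1-R3H], and there [RBS1-R3H] overlapped rpc128-1007 (1567, 1280.2 and 1031 CPM). LEU3, the factor that activates these genes when isopropylmalate is present, was lower in [RBS1], with 96.4, 118 and 96.7 CPM against 134, 148 and 132 CPM in [RBS1-R3H] (log2 fold change -0.41, adjusted p = 0.0068). For the genes of leucine synthesis, the LEU2 level on the plasmid moved in the same direction between these strains (the lower level in [RBS1] given above), and its part in the result was not tested.

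The Leu3 binding site, CCGG followed by any 2 bases and a further CCGG, stood within the same 500 bases before 16 of 5698 tested genes (0.281%) and before 4 of the 12 branched-chain genes, among them LEU1, BAT1 and ILV2. TGACTC stood before 10 of the 12. OAC1 and LEU4 had no match to the Leu3 letters. The Leu3 sites of LEU1 and BAT1 and the TGACTC site of LEU1 are shown because both motifs precede these genes. In LEU1 they lie 217 and 301 bases before the start codon, on the minus strand at chrVII:478850-478879 and chrVII:478936-478965, and in BAT1 the Leu3 site lies 147 bases before the start codon at chrVIII:517375-517404.
LEU1, Leu3 site: aacgaaaattCCGGGACCGGcgaaatttgc
LEU1, Gcn4 site: cattactctagaTGACTCagtttagtctga
BAT1, Leu3 site: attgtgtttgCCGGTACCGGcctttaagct

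**Figure D4:**
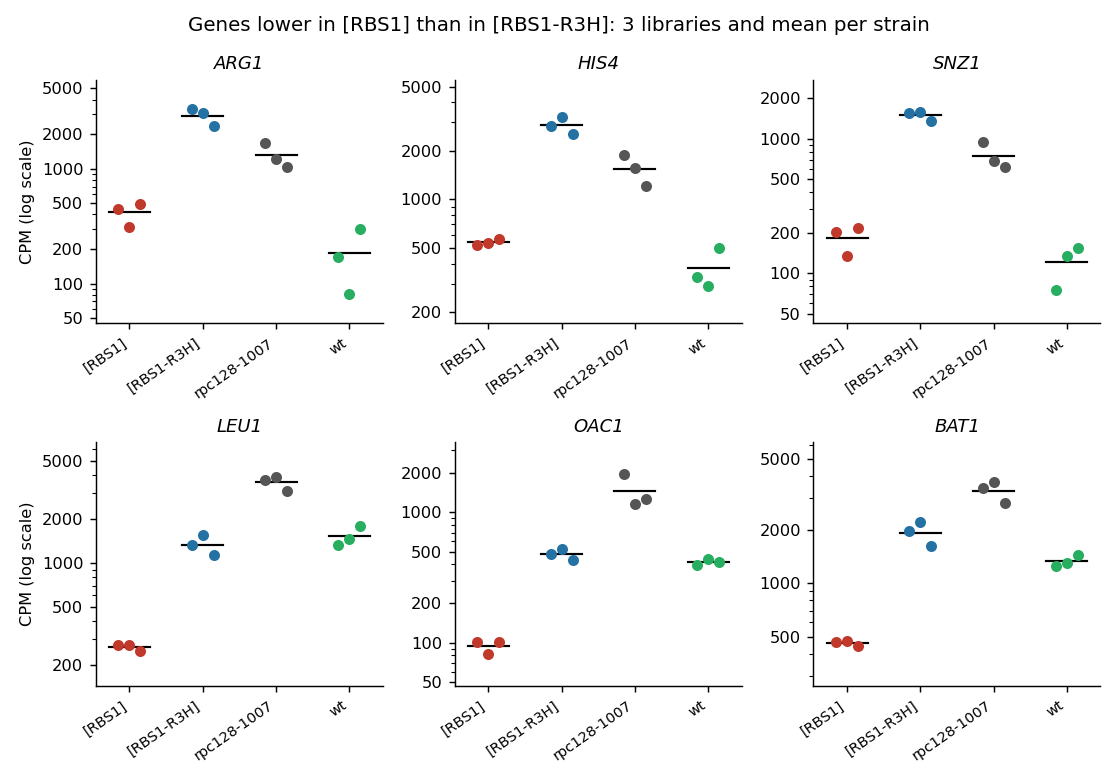
Levels of ARG1, HIS4, SNZ1 (top) and LEU1, OAC1, BAT1 (bottom) in CPM on a log scale, with 3 libraries (points) and their mean (line) for [RBS1], [RBS1-R3H], rpc128-1007 and wt from left to right. The top genes are highest in [RBS1-R3H], with ARG1 at 2371 to 3298 CPM, and the bottom genes are lowest in [RBS1], with LEU1 at 248 to 274 CPM, and highest in rpc128-1007.

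Genes that feed or surround the amino acid pathways were lower too, in larger shares than the 14.4% of all genes. Of 22 genes for vitamin B6, NAD, biotin and riboflavin, 13 were lower and 2 were higher. SNZ1, a subunit of the enzyme that makes vitamin B6, had 203, 135 and 217 CPM in [RBS1] and 1554, 1575 and 1358 CPM in [RBS1-R3H], an 8.09-fold difference (log2 fold change -3.02 ± 0.26, adjusted p = 9.68e-07), and its partner SNO1 was lower too (-2.59). The 2 higher calls were SNZ2 and SNZ3, near-identical paralogs whose reads may be split between them. Of 16 mitochondrial carriers 10 were lower, led by GGC1, which exchanges GTP and GDP, at 319.7, 269.9 and 341 CPM in [RBS1] and 1528, 1604 and 1333 CPM in [RBS1-R3H], and by ORT1, the ornithine carrier, at -1.78.

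Of 17 amino acid permeases 8 were lower and 2 were higher (47.1% and 11.8%, against 14.4% and 13.5% of all genes). Only 1 was higher without replicate 2 of [RBS1] or replicate 3 of [RBS1-R3H]. BAP2, a permease for branched-chain amino acids, was 3.45-fold lower (335, 309 and 340.0 CPM in [RBS1], 1091, 1218 and 1089.8 CPM in [RBS1-R3H]), while ALP1, a basic amino acid permease, was higher by 1.40 on the log2 scale. GAP1, the general permease, was not called (-0.16). Of 25 genes of the TCA cycle and the retrograde response, 11 were lower and 2 higher (44.0% and 8.0%). The lower ones included IDP1, mitochondrial isocitrate dehydrogenase (-1.69), PYC2, pyruvate carboxylase (-1.65) and MAE1, malic enzyme (-1.63), enzymes that supply carbon skeletons for amino acids. Citrate synthase CIT2, the usual reporter of the retrograde response, was not called (0.04).

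Genes of the translation machinery divided by class. Of 21 cytosolic aminoacyl-tRNA synthetase genes 11 were lower in [RBS1] (52.4%, against 14.4% of all genes). KRS1, the lysyl-tRNA synthetase, had 1273, 1519 and 1323 CPM in [RBS1] and 2881, 3312 and 2708 CPM in [RBS1-R3H], with a log2 fold change of -1.11 ± 0.10 (adjusted p = 1.59e-06), and DPS1 and CDC60, for aspartate and leucine, had log2 fold changes of -0.91 and -0.87. Of 36 genes for cytosolic ribosomal proteins 12 were lower (33.3%), with a median of -0.18. They included a pair of minor paralogs, RPS9A with 184, 152 and 153 CPM in [RBS1] and 406, 334 and 416 CPM in [RBS1-R3H], and RPL7B with 92.5, 69.8 and 72.6 CPM in [RBS1] and 180.0, 168 and 159 CPM in [RBS1-R3H]. Their major paralogs RPS9B and RPL7A were not called, with log2 fold changes of -0.17 and -0.16 against -1.24 and -1.11. With the replicate block RPL7A was called (adjusted p = 0.0318), as was RPS9B without replicate 3 of [RBS1-R3H], and reads may be split between near-identical copies. The count of lower ribosomal protein genes ranged between 5 (without replicate 2 of [RBS1-R3H]) and 17 (without its replicate 3) when a library of the pair was left out. It was 6 with library totals and 21 with the replicate block, so the count rests on the setting.

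Of 82 ribosome biogenesis genes 7 were higher and 3 were lower, shares under those of all genes, and 2 or 3 were higher without replicate 1 or 2 of [RBS1] or replicate 1 or 3 of [RBS1-R3H]. Of 18 genes of translation initiation factors 4 were higher (TIF5, CDC33, TIF11 and TIF35), each by at most 0.25 on the log2 scale, against 13.5% of all genes. When any library but replicate 2 of [RBS1-R3H] was left out, 0 of the 18 were called higher (edgeR). PRT1, the eIF3 subunit that served as another suppressor in the series, was not called, with a mean of 664 ± 75.0 CPM in [RBS1] and 621 ± 43.2 CPM in [RBS1-R3H] (SD, n = 3 each). Among 64 mitochondrial ribosome genes 1 was higher and 1 was lower (5 lower without replicate 3 of [RBS1] or replicate 2 of [RBS1-R3H], and 3 higher without replicate 3 of [RBS1-R3H]), with a median of -0.06 that changed sign to 0.06 with library totals. Set against rpc128-1007, the same list had medians of -0.51 in [RBS1] and -0.45 in [RBS1-R3H], and these values share the rpc128-1007 libraries.

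Among genes with a mean of at least 10 CPM in the higher strain and libraries that did not overlap, the largest falls were mostly of genes outside the amino acid lists. Of these genes, TMT1 and YOR302W, described below, touch those pathways by their function. SRL4, a gene of unclear function that is linked to dNTP regulation, had 4.01, 2.72 and 3.2 CPM in [RBS1] and 40.5, 44.0 and 32.2 CPM in [RBS1-R3H], an 11.5-fold difference (log2 fold change -3.53 ± 0.34, adjusted p = 3.79e-06). PIR5, a cell wall protein gene, had 4.89, 2.72 and 4.74 CPM in [RBS1] and 44.4, 43.7 and 34.5 CPM in [RBS1-R3H]. In both, rpc128-1007 lay between the plasmid strains. TGACTC stood in the 500 bases before SRL4 (1 match) and PIR5 (2 matches), and before TMT1 (1 match), which is named next. It preceded 51.3% of the genes lower by more than 2-fold and 12.9% of all tested genes. The others of the 12 lowest were TMT1, a methyltransferase for trans-aconitate and isopropylmalate (-2.89), RTC2, a vacuolar transporter of basic amino acids (-2.82), ATG41, needed for autophagy (-2.82), URA10, a minor orotate phosphoribosyltransferase (-2.82), ECM13 (-2.85), FMP23 (-2.73), COX26, a small protein of cytochrome oxidase (-2.92), and YOR302W, the small reading frame before CPA1 that lets arginine repress it (-3.04), together with SNZ1 and ARG1.

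YOR302W and COX26 are very short, and replicate 2 of [RBS1] held 4 and 8 counts of them. Without that library their log2 fold changes were -2.66 and -2.52, and they were still called. Without replicate 1 of [RBS1] the value of YOR302W was -4.01. Among enzymes of other lists, ADH5, an alcohol dehydrogenase, had 66.6, 51.0 and 67.6 CPM in [RBS1] and 366, 417 and 354 CPM in [RBS1-R3H], and ALD5, a mitochondrial aldehyde dehydrogenase, had 195, 157 and 193 CPM in [RBS1] and 1072, 1102 and 877 CPM in [RBS1-R3H], both more than 5-fold lower. In the glycolysis list around them 3 of 30 genes were higher and 4 lower. The higher share was under the 13.5% of all genes and the lower share was near their 14.4%. Only 1 gene of the list was higher when any library but replicate 3 of [RBS1-R3H] was left out. HIS3 and LYS2, which are present as mutant alleles in every strain of the series, were lower in [RBS1], with log2 fold changes of -2.09 and -1.73.

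The proteasome was the clearest group in the other direction. Of 34 tested genes, RPN4 included, 26 were higher in [RBS1], against 13.5% of all genes, with a median log2 fold change of 0.40. The summed level was 10503, 9965 and 11272 CPM in [RBS1] and 7965, 7606 and 8722 CPM in [RBS1-R3H], so the strains did not overlap, and it was 8102, 7803 and 9384 CPM in rpc128-1007 and 11257, 10194 and 12216 CPM in wt. Against the shared rpc128-1007 libraries the median of the list was 0.38 for [RBS1] and -0.02 for [RBS1-R3H]. The rise was small in each gene: under a test against a fold change of 1.5, 0 of the 34 were called, and leaving out single libraries of the pair left 19 to 26 calls.

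PUP1, a catalytic subunit of the core particle, had 295, 252 and 302 CPM in [RBS1] and 166, 164 and 191 CPM in [RBS1-R3H], with a log2 fold change of 0.70 ± 0.10 (adjusted p = 0.000137). RPN10, a ubiquitin receptor of the regulatory particle, had 267, 275 and 309 CPM in [RBS1] and 183, 163 and 197 CPM in [RBS1-R3H] (0.65, adjusted p = 0.00148). PRE5, an alpha subunit of the core, had 429, 389 and 495 CPM in [RBS1] and 274, 265 and 317 CPM in [RBS1-R3H] (0.62, adjusted p = 0.00324). Every [RBS1] library was above every [RBS1-R3H] library in these genes. UMP1, the chaperone of core assembly, which is not in the list, was higher by 0.71, with 159.8, 146 and 188 CPM in [RBS1] and 101, 94.1 and 106 CPM in [RBS1-R3H].

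RPN4, the transcription factor that activates the proteasome genes, was not called at the mRNA level. It had 111, 88.1 and 93.5 CPM in [RBS1] and 113, 102 and 99.5 CPM in [RBS1-R3H] (log2 fold change -0.10 ± 0.12, adjusted p = 0.576). Its binding element, GGTGGCAAA, stood on either strand within 500 bases of the start codon of 27 of the 34 proteasome genes (79.4%) and of 1.68% of all tested genes. PUP1, RPN10 and PRE5, the 3 genes given above with the largest differences of the list, had no match in this window. It preceded 5.10% of the genes called higher in [RBS1] and 0.241% of those called lower. The element before PUP2, a core subunit that was higher by 0.55, is shown with the motif in capitals, 104 bases before the start codon on the minus strand at chrVII:999225-999254.
PUP2: aaccaagaccGGTGGCAAAagagtaaccta

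**Figure D5:**
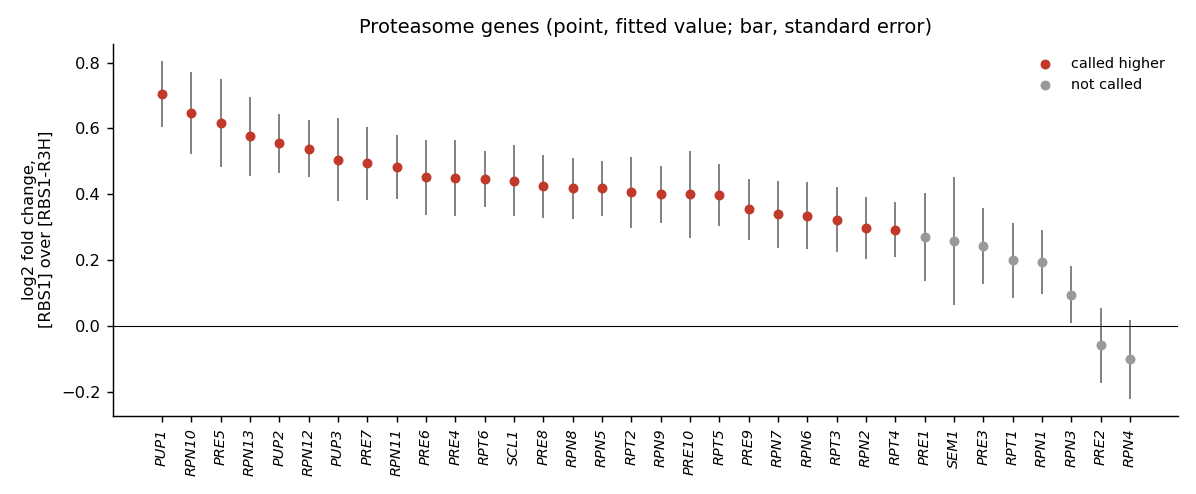
Log2 fold change of [RBS1] over [RBS1-R3H] for each of the 34 proteasome genes in falling order, with the standard error as a bar, genes called higher in red and genes not called in grey. The called genes lie between 0.29 and 0.70, and PRE2 and RPN4 are the only genes with a value under 0.

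The 12 highest fold changes among genes with a mean of at least 10 CPM in [RBS1] and libraries that did not overlap were mostly in genes of low expression, and some genes under that level, such as HXT10 and MF(ALPHA)1, had larger ones than most of them. ECM8, of unknown function, had 17.2, 22.5 and 19.2 CPM in [RBS1] and 1.99, 2.54 and 3.64 CPM in [RBS1-R3H], a 7.13-fold difference (log2 fold change 2.83 ± 0.28, adjusted p = 4.35e-06). PRB1, the vacuolar proteinase B, was the most abundant of them, with 616, 609.9 and 659.6 CPM in [RBS1] and 127, 127 and 219.6 CPM in [RBS1-R3H] (1.99 ± 0.28, adjusted p = 0.000105). The lack of overlap in these genes was a condition of their choice. PRB1 had 117, 183 and 212 CPM in rpc128-1007, far under every [RBS1] library. NAM8, a splicing factor of the U1 particle that is needed for meiotic introns, was 3.24-fold higher, at 140.4, 114 and 142 CPM in [RBS1] and 45.0, 34.8 and 42.5 CPM in [RBS1-R3H].

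The others were GEX2, a glutathione exchanger with a near-identical copy GEX1 (2.33), YFL040W, a putative transporter (2.24), SPR28, a septin of sporulation (2.13), SPS2, a spore wall protein (1.94), YML131W, a putative oxidoreductase (1.78), TIR1, a cell wall mannoprotein (1.75), FIT2, a mannoprotein for iron uptake (1.75), YJL218W, a putative acetyltransferase (1.56) and ANB1, the eIF5A of low oxygen (1.51). Each of the 12 was called under every alternative run, the test against a fold change of 1.5 aside. TIR1 was highest in replicate 2 of [RBS1], with 20.4, 41.3 and 18.6 CPM in [RBS1] and 8.94, 5.88 and 8.85 CPM in [RBS1-R3H], and its log2 fold change was 1.28 without that library.

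Since several of these genes belong to sporulation, all tested genes whose reference note names meiosis or spores were counted, a group chosen after its values were seen. Of 317 such genes 65 were higher and 28 were lower in [RBS1] (20.5% higher against 13.5% of all genes, and 8.83% lower against 14.4%), and the median was 0.07. The largest change of the group was the fall of PIR5 (-3.28), whose reference note names sporulation, and SPO24 and SPO21 were lower too (-2.44 and -2.02). RIM4, a repressor of translation in meiosis, had 27.1, 23.5 and 19.4 CPM in [RBS1] and 11.2, 7.96 and 10.6 CPM in [RBS1-R3H]. HOP1, a protein of the meiotic chromosome axis, had 14.6, 14.9 and 13.9 CPM in [RBS1] and 8.72, 6.35 and 5.1 CPM in [RBS1-R3H]. DIT1, an enzyme of the spore wall, had 19.6, 18.5 and 19.6 CPM in [RBS1] and 6.84, 5.88 and 8.43 CPM in [RBS1-R3H], so these 3 were higher in each [RBS1] library at levels that remained low.

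Glucose transporter genes moved in both directions. Of 19 genes for hexose transport and its control 8 were higher and 6 lower in [RBS1] (42.1% and 31.6%, against 13.5% and 14.4% of all genes). HXT7 and HXT6, near-identical high-affinity transporters, were both higher. HXT7 had 113, 118 and 178 CPM in [RBS1] and 54.3, 56.6 and 49.3 CPM in [RBS1-R3H] (log2 fold change 1.35), and HXT6 had a log2 fold change of 1.27. The low-affinity transporter HXT1 was lower, with 174, 217 and 243 CPM in [RBS1] and 364, 331 and 460.3 CPM in [RBS1-R3H] (-0.87, adjusted p = 0.000776). HXT10, which had the largest fold change of the list (2.28), had 5.05, 3.46 and 4.3 CPM in [RBS1] and 0.662, 0.808 and 1.14 CPM in [RBS1-R3H]. With library totals 3 genes were lower.

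Of 26 cell wall genes 5 were higher and 1 was lower (19.2% and 3.85%, against 13.5% and 14.4% of all genes). TIP1, a cell wall mannoprotein induced by cold and by low oxygen, had 248, 229 and 272 CPM in [RBS1] and 118, 88.5 and 101 CPM in [RBS1-R3H] (log2 fold change 1.28, adjusted p = 1.08e-05). Of 13 genes of the unfolded protein response 6 were higher (46.2%, against 13.5% of all genes), by 0.31 to 0.47 on the log2 scale. They included KAR2, the main chaperone of the endoplasmic reticulum. The 2 lower genes, among them ERO1 (-0.56), were a share of 15.4%, near the 14.4% of all genes. Lower calls fell to 1 without replicate 1 of [RBS1] or replicate 1 or 2 of [RBS1-R3H]. Of 29 genes for sterol and fatty acid synthesis 8 were higher and 5 lower (27.6% and 17.2%, against 13.5% and 14.4% of all genes), so the lower share was near that of all genes. CHO1, phosphatidylserine synthase, had 225, 218 and 249.7 CPM in [RBS1] and 131, 129 and 142 CPM in [RBS1-R3H] (0.78, adjusted p = 1.94e-05), and INO1, inositol phosphate synthase, was higher by 1.21. FAS1, FAS2 and ACC1, which make fatty acids, were higher by 0.35 to 0.49.

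The genes of Pol III itself were mostly not called, as were 4221 of the 5851 tested genes. Of 17 subunit genes 1 was higher and 1 lower (5.88% each, against 13.5% and 14.4% of all genes), or 0 and 2 without replicate 2 of [RBS1]. RET1, the gene that carries rpc128-1007, had 202, 212 and 186 CPM in [RBS1] and 240.2, 271 and 253 CPM in [RBS1-R3H], and was lower in [RBS1] (log2 fold change -0.35 ± 0.09, adjusted p = 0.00873). The call was lost with library totals and without replicate 2 of [RBS1-R3H] (adjusted p of up to 0.063). RPC17 was higher by 0.30 (adjusted p = 0.0228), a call lost with the trend of length removed and without replicate 2 or 3 of [RBS1] or replicate 1 or 3 of [RBS1-R3H], with an adjusted p of up to 0.13. RPB10, a subunit shared by all the polymerases, had 253, 132 and 248 CPM in [RBS1] and 193, 214 and 186 CPM in [RBS1-R3H]. Replicate 2 of [RBS1] was the lowest of the 6 libraries and the other [RBS1] libraries were the highest, and the log2 fold change was 0.10 ± 0.26 with all libraries (adjusted p = 0.816) and 0.32 without replicate 2. RPB10 is among the short genes that were low in that library, and with the trend of length removed it was called higher (0.27, adjusted p = 0.0481).

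Of 11 genes of Pol III factors 2 were higher and 2 lower (18.2% each, against 13.5% and 14.4% of all genes). MAF1, the repressor of Pol III, had 65.1, 70.5 and 70.8 CPM in [RBS1] and 47.3, 40.7 and 47.0 CPM in [RBS1-R3H], and was higher by 0.61 ± 0.09 (adjusted p = 0.000224). TFC3, the largest subunit of TFIIIC, had 38.8, 44.8 and 40.3 CPM in [RBS1] and 62.8, 61.5 and 59.0 CPM in [RBS1-R3H], and was lower (log2 fold change -0.57 ± 0.11, adjusted p = 0.00216). Neither gene overlapped between the strains. TFC7, another TFIIIC subunit, was higher by 0.32, and SPT15, the TATA-binding protein, was lower (-0.24), a call lost with library totals and without replicate 1 of [RBS1] or replicate 2 or 3 of [RBS1-R3H] (adjusted p of up to 0.29). The products of Pol III were not measured.

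Several lists lay near or under the shares of all genes. Of 32 genes of the respiratory chain and ATP synthase 0 were called by edgeR, DESeq2 or limma-voom, with 2 higher and 1 lower at an unadjusted p under 0.05 in edgeR, and 5 higher and 2 lower with the replicate block. Without replicate 2 of [RBS1], 5 were higher. The summed level of that list was 6181, 4312 and 8060.5 CPM in [RBS1] and 5909, 5355 and 5854 CPM in [RBS1-R3H], with replicate 2 of [RBS1] lowest and replicate 3 highest of the 6. Of 27 genes of mRNA decay and poly(A) binding 1 was higher and 2 were lower, each by less than 0.4 on the log2 scale, with 4 lower without replicate 2 of [RBS1]. Of 29 stress and heat shock genes 2 were higher and 1 was lower, with 4 higher without replicate 2 of [RBS1]. The lower gene was HSP78, a mitochondrial chaperone of the Hsp100 family, with 39.0, 28.7 and 36.7 CPM in [RBS1] and 183, 146 and 139 CPM in [RBS1-R3H] (log2 fold change -2.16, adjusted p = 0.000261). Of 19 genes of glycogen and trehalose 2 were higher and 1 lower, or 1 and 0 without replicate 2 of [RBS1], and of 10 histone genes 1 was lower.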

How the data were processed

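Polyadenylated RNA of 15 libraries, 3 for each of 5 strains, was sequenced. The authors deposited 1 table of raw read counts per gene, made by aligning reads to the Ensembl EF4 genome with TopHat2 (2.0.11) and counting with GenomicAlignments. How reads of overlapping genes were counted and whether strand was used are not given in the sources used here, so overlapping and near-identical genes are uncertain.

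Of 6600 genes, 5851 passed edgeR's expression filter. Counts were scaled by TMM factors and tested with edgeR's quasi-likelihood test (edgeR 4.0.16, R 4.3.3) over all 15 libraries without a replicate block, with Benjamini-Hochberg adjustment over all tested genes and a threshold of 0.05. CPM are counts per 1000000 counts of the TMM-scaled library. List membership and the rule for named genes (RBS1, PPH22, UFD2, LEU2, URA3, RET1, RPB10 and GCN4, the 12 highest and 12 lowest fold changes among called genes with libraries that do not overlap and a mean of at least 10 CPM in the higher strain, and the 3 called genes with the largest change in each list with at least 3 calls) were chosen with earlier results of these data known, as were the members of the comparison. BAT1, LEU3, RPS9B, RPL7A, HXT1, HIS3, LYS2, PUP2, UMP1, RIM4, HOP1 and other list members outside that rule were named after their values were seen. The labels call the libraries of a strain biological replicates without naming cultures or transformants, so p-values measure the spread between these libraries, which may be partly technical.

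Same-numbered libraries of [RBS1] and [RBS1-R3H] deviated together, with correlations of 0.158 to 0.314, against -0.187 to -0.0267 for different numbers. Deviations from a strain's own mean cancel out, so the values for different numbers follow in part from the others. The other strains were not checked, although the block was fitted over all the strains. The numbers come from the labels, which name no shared day, and were taken as pairs: with the block 2089 genes were called (1060 higher and 1029 lower). Alternatives were DESeq2 (1.42.0), limma-voom (limma 3.58.1), other scalings, no filter, the 6 libraries alone, the block, each library left out, a correction for gene length, genes of at least 1000 bases and a test against a fold change of 1.5. On simulated counts for this comparison, 87% of 200 genes changed 2-fold and 58% of those changed 1.5-fold were called. Only those 200 genes were changed, far fewer than the calls in the data. The counts were drawn without a trend of gene length or a replicate effect, so the shares may differ from those in the data. Motifs and coordinates come from the R64 reference, whose build differs from that of the counts, so genes were matched by identifier only (5917 of 6600).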

Additional observations from a re-analysis of the deposited data

How the results depend on the processing

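The total of called genes stayed within 1.5 times of 1630 under every alternative run except the test against a fold change of 1.5, with 259 calls (54 higher and 205 lower in [RBS1]). Higher calls moved further, with 1460 under library totals and 514 to 619 when a library was left out. Among genes of at least 1000 bases there were 474, but only 3490 genes were tested there. No call of the comparison changed sign under any alternative. The replicate block gave 2089 calls and ended none of those named here, and RBS1, RPL7A and STE2 passed the threshold with it. Of 127 genes named by rule 123 were called and 105 of them kept the call in every alternative, the test against 1.5-fold aside. Genes that were not called changed sign: PPH22 ranged from -0.12 to 0.53 when a library was left out, RPB10 from -0.053 to 0.32, and URA3 from -0.18 to 0.011, with 0.055 under library totals. The cause was not tested. The 3 libraries a strain and low counts of short genes limit what could be detected.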

Other observations

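Of 4 genes of the alpha mating type, which MATa cells hold at low levels, 3 were called higher in [RBS1] (13.5% of all genes were) and 1 was not called. SAG1, alpha-agglutinin, had 58.3, 55.6 and 59.7 CPM in [RBS1] and 34.1, 27.1 and 30.6 CPM in [RBS1-R3H], with a log2 fold change of 0.92 (edgeR adjusted p = 1.45e-05). MF(ALPHA)1 had 2.41, 2.1 and 2.65 CPM in [RBS1] and 0.11, 0.346 and 0.52 CPM in [RBS1-R3H], and STE3, the a-factor receptor, was higher by 0.60, a call lost under 8 alternatives, among them leaving out replicate 1 or 3 of [RBS1] or replicate 1 or 2 of [RBS1-R3H] (adjusted p of up to 0.16). Of 7 genes of MATa cells 1 was higher (BAR1, at 0.63), a share of 14.3% that was near that of all genes.

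Of 28 iron and copper genes 5 were higher and 6 lower in [RBS1] (17.9% and 21.4%, against 13.5% and 14.4% of all genes), and 2 were higher when any library but replicate 3 of [RBS1] was left out. Single genes that were called included FIT2 at 1.75 on the log2 scale, TIS11, which speeds the decay of iron-dependent mRNAs, at 1.35, and ISU1, a scaffold for iron-sulfur clusters, at -1.73. The TIS11 call was lost when any library but replicate 3 of [RBS1] was left out (adjusted p of up to 0.12). PHO84, the high-affinity phosphate transporter, had 376, 917 and 170.1 CPM in [RBS1] and 226, 287 and 197 CPM in [RBS1-R3H], so the strains overlapped and it was not called (adjusted p = 0.15), although it was called without replicate 3 of [RBS1], while PHO8, the vacuolar alkaline phosphatase, had a log2 fold change of -1.38 and was called lower.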
